A study of Drosophila melanogaster with 36 samples.

Results

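The miRNAs described here are 20 fly miRNAs of the higher numbers that lie outside the named miRNA clusters, namely dme-miR-927, dme-miR-928, dme-miR-929, dme-miR-954, dme-miR-955, dme-miR-965, dme-miR-966, dme-miR-967, dme-miR-968, dme-miR-969, dme-miR-970, dme-miR-971, dme-miR-980, dme-miR-985, dme-miR-986, dme-miR-987, dme-miR-988, dme-miR-999, dme-miR-1001 and dme-miR-1002 (the prefix for Drosophila melanogaster is left out from here on). They were chosen by name, as every feature of the deposited tables whose identifier begins with a listed name and a hyphen, a rule that reads no measured value. The tables held 38 such mature arms, from 19 hairpins, among 495 features with a miRBase name and a further 178 with rr identifiers. The remaining name, miR-928, was not analysed here.

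The libraries hold small RNA of whole heads from w1118 females of Drosophila melanogaster, with 400 heads pooled per sample. The old group was 55 days and the young group 5 days of age, and no other difference in genotype or treatment is given. Heads of each age were taken at 6 zeitgeber times (ZT, hours of the daily cycle), ZT0, ZT4, ZT8, ZT12, ZT16 and ZT20, with 3 replicates at each, which gives 18 old and 18 young libraries. The comparisons that follow ask what differs between old and young heads, what cycles over the day, and whether that cycle differs between the ages.

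A miRNA is cut by Drosha and Dicer-1 from a hairpin whose stem holds a 5p and a 3p arm. Usually a single arm is loaded into Argonaute1 and guides it to messenger RNAs through the seed near its 5′ end, while the partner arm is mostly degraded, so that the ratio of arms in a sample reflects both loading and stability. Many fly miRNA hairpins lie in introns and are made from the transcript of their host gene. In flies miR-980 is known as a suppressor of memory formation that acts on the RNA-binding protein A2bp1, miR-965 acts in the histoblasts that form the adult abdomen, and miR-927 acts on the juvenile hormone response gene Kr-h1.

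Of the 19 hairpins, 12 lie in introns of protein-coding genes (miR-987 among them, which also lies in a noncoding RNA exon), 3 in exons of noncoding RNA genes only and 4 outside any gene on their strand (positions here and below are on BDGP6, 1-based). Chromosome X carries 6 of them, 2L carries 5, 2R and 3R carry 3 each, and 3L and 4 carry 1 each. The hairpins of miR-968 (2L, 13747748 to 13747839, minus strand) and miR-1002 (2L, 13747609 to 13747697, minus strand) lie 51 bases apart in an exon of lncRNA:CR45913.

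Libraries held 16.2 to 23.6 M miRNA counts in old heads and 19.8 to 30.4 M in young heads. Replicates differed by far more than counting error in all 36 pairs, and the labels do not say that they came from separate cohorts, so p-values measure the spread between these samples, which may be technical. The neuronal miR-124-3p had a median of 413 CPM (counts over the library total as adjusted by edgeR's TMM factors; a read spans a whole arm, so no length enters) in old and 317 CPM in young heads, and the eye miRNA miR-210-3p 28581 and 36404 CPM, while among 5 early embryo miRNAs miR-309-3p had a median of 0 in both and miR-5-5p and miR-6-3p rose, by 0.65 and 0.70 on the log2 scale (edgeR adjusted p = 2.47e-06 and 1.35e-04), to medians of 14.1 and 4.20 CPM in old against 8.14 and 2.15 CPM in young heads. Of the other early embryo miRNAs, miR-3-3p (0.19) and miR-4-3p (0.18) were not called (edgeR adjusted p = 0.231 and 0.589). Another listed eye miRNA, miR-7-5p, differed by -0.54 (edgeR adjusted p = 2.12e-04). The part of these marker miRNAs in the results was not tested. The summed ovary miRNAs, 4 in number, had medians of 14.6 CPM in old and 19.7 CPM in young heads but reached 660.2 CPM in old ZT0 replicate 1, and 2 young libraries, ZT4 replicate 3 and ZT8 replicate 3, were also rich in them (miR-318-3p at 460 and 784 CPM). In a further pair miR-184-3p took 37.1% of all miRNA counts, in old ZT0 replicate 3, and 45.3%, in young ZT0 replicate 1. All 20 calls of an age difference described below held without these 5 libraries. In that fit 22 of the arms were called, and 245 of 386 features in all.

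Together the 38 arms made up 6.01% ± 0.689 of the miRNA counts in old heads and 6.64% ± 0.701 in young heads (SD, n = 18 each). A single arm, miR-999-3p, gave 64.3% of these counts and ranked as number 8 of all features. It was followed by miR-987-5p (15.3%, rank 17), miR-970-3p (8.17%, rank 24), miR-927-5p (7.07%, rank 27) and miR-986-5p (2.16%, rank 47). A further 5 arms had a mean above 100 CPM over all libraries and 8 had one between 10 and 100 CPM. At the other end, 13 tested arms lay under 10 CPM, 7 of them under 1 CPM, and 7 arms did not pass the filter on low counts, namely miR-955-3p, miR-966-3p, miR-968-3p, miR-969-5p, miR-985-3p, miR-985-5p and miR-1002-3p. No count of miR-985-5p was made in any library, which allows a level of up to 0.0036 CPM over the 832.8 M counts of all libraries. Its hairpin (X, 16191254 to 16191339, minus strand) lies in exons of lncRNA:CR46211.

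**Figure D1:**
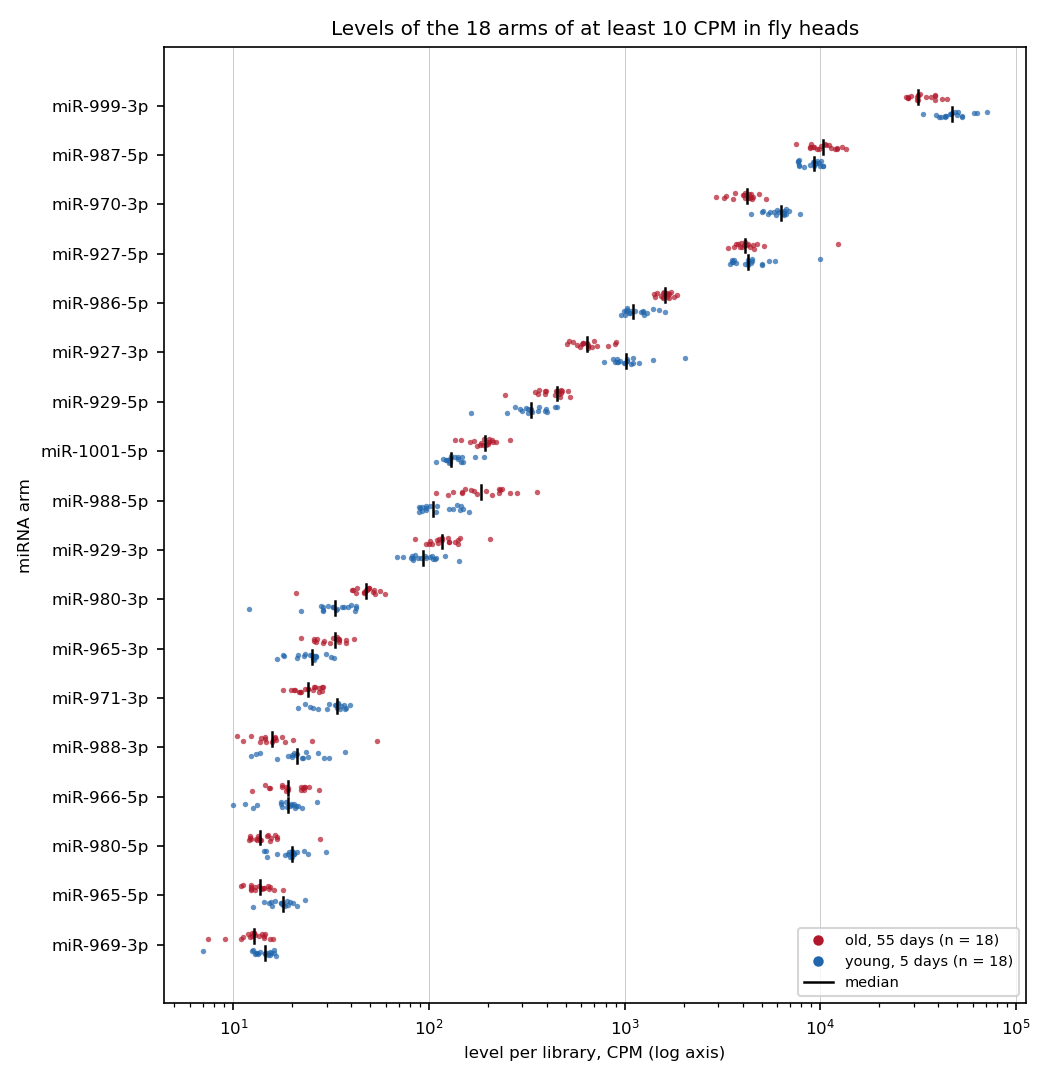
Level per library in CPM (log axis) of the 18 arms with a mean of at least 10 CPM, with 18 old libraries (red, upper lane of each arm) and 18 young libraries (blue, lower lane); the black bar is the median. The lanes overlap for every arm, and the medians stand furthest apart for miR-988-5p, 185 CPM in old and 104 CPM in young heads.

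Old heads differed from young heads in 20 of the 31 tested arms, with 8 arms higher and 12 lower in old heads (edgeR quasi-likelihood test with Benjamini-Hochberg adjustment over all 363 tested features, threshold 0.05). Among all tested features 61.4% were called, 28.7% higher and 32.8% lower, so the share of these arms, 64.5%, lay near the background. At an unadjusted p under 0.05 there were 22 of the 31 arms against 63.4% of all features, and of the features with a miRBase name alone 60.8% were called. Their median log2 difference was -0.29, against -0.01 over all features, and the median size of the difference was 0.40 against 0.39. Of the 20 called arms 19 had their direction at all 6 time points, the exception being miR-987-5p with 5. The call averages over the same time points, so this count does not stand apart from it. No share over all features is given for this count. Means over the 6 time points of a replicate number were also compared, 3 old against 3 young means. They did not overlap for 20 of the 31 arms, or 64.5%, against 54.5% of all features. Of these arms 19 were called and 1 was not. In whole heads, a lower count from fewer cells of a type cannot be told apart from less of the miRNA per cell.

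All these directions are relative to the typical miRNA of a library, and the scaling sets that zero. The median log2 difference of all features was -0.01 as scaled here, 0.19 with library totals alone, 0.11 in limma on log2(RPM + 1), and -0.62 when libraries were scaled to the larger total that lies behind the deposited piRNA values, of which miRNAs took 23.0% to 31.6% in old and 38.7% to 54.2% in young heads. On that last scale none of the 31 arms was called higher and 28 were called lower, and of the 8 rises 7 turned negative and that of miR-988-5p was no longer called. Over all 363 features 104 were called higher and 119 lower as scaled here, 145 and 72 with library totals alone, 147 and 70 in limma on log2(RPM + 1), and 28 and 251 on the piRNA total. The 31 arms gave 10 higher and 10 lower both with library totals alone and in limma.

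**Figure D2:**
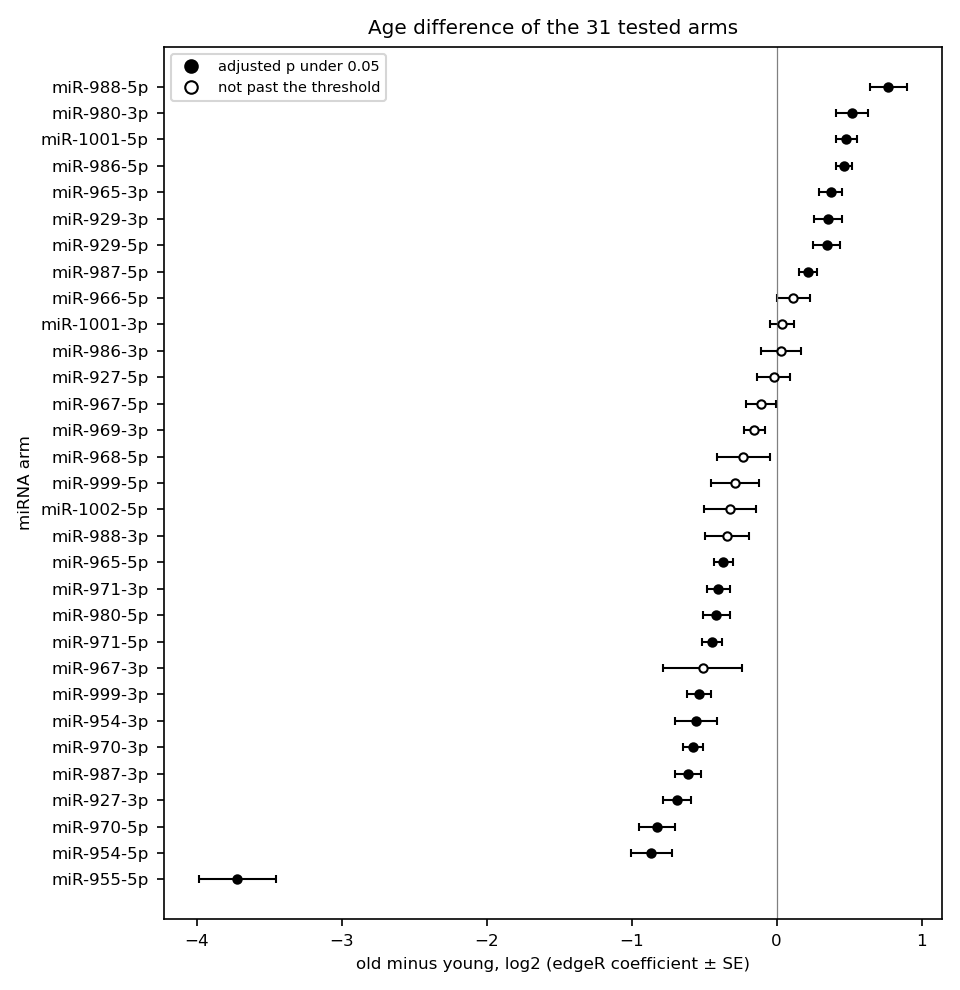
Old minus young difference of the 31 tested arms on the log2 scale (edgeR coefficient with its SE, 36 libraries), with filled points for an adjusted p under 0.05 and open points for the rest. A single arm, miR-955-5p, lies at -3.72, and the other 30 lie between -0.86 and 0.77; relative to the total behind the piRNA values, every point but that of miR-988-5p lies below 0.

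The 8 arms that rose in old heads were among the 18 of at least 10 CPM, and none of the 13 arms below that level rose, against 32.3% and 25.5% of all features at those levels. With library totals alone and in limma on log2(RPM + 1), miR-1001-3p, an arm under 10 CPM, was called higher too (0.24 and 0.19, adjusted p = 0.0261 and 0.0239). The largest rise was that of miR-988-5p, whose hairpin lies in an intron of Prp8, which encodes a core protein of the spliceosome (2R, 12158872 to 12158970, minus strand). Its level was 108 to 358 CPM with a median of 185 in old heads, against 88.7 to 159 CPM with a median of 104 in young heads. Every old library lay above the young median, and 12 of 18 lay above the highest young library. The difference was 0.77 on the log2 scale (SE 0.128, adjusted p = 3.82e-06).

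From an intron of the cytochrome P450 gene Cyp4e2 comes miR-986-5p (2R, 8444982 to 8445081, plus strand), with 1407 to 1844 CPM and a median of 1601 in old heads, against 957 to 1608 CPM and a median of 1104 in young heads. Here too every old library was above the young median, and at 5 of 6 time points the 3 old libraries lay above the 3 young ones. The difference was 0.46 (SE 0.058, adjusted p = 1.98e-08). The memory-suppressing miRNA miR-980 (X, 280172 to 280269, minus strand, outside genes on its strand) had 20.8 to 59.4 CPM of its 3p arm with a median of 47.9 in old heads, against 12.0 to 42.5 CPM with a median of 32.9 in young heads. The lowest value of each age was that of the miR-184-rich library, and 15 of 18 old libraries exceeded all young ones. The rise was 0.52 (SE 0.111, adjusted p = 1.37e-04), or 0.58 without the 5 libraries that stood apart.

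Within the gene tau, which encodes a microtubule-binding protein, lies miR-1001 (3R, 27642466 to 27642555, minus strand). Its hairpin is intronic in 12 annotated transcripts and part of the 3′ untranslated region in 1. For miR-1001-5p the old libraries held 135 to 260 CPM with a median of 193, and the young libraries 108 to 191 CPM with a median of 130. All old libraries were above the young median, and the difference was 0.48 (SE 0.070, adjusted p = 4.44e-07). The hairpin of miR-965 (2L, 243035 to 243141, minus strand) is in an intron of the chromatin remodeller gene kis. Its 3p arm had 22.2 to 41.2 CPM, median 32.9, in old heads and 16.7 to 32.7 CPM, median 25.3, in young heads, with 17 of 18 old libraries above the young median (log2 0.37, SE 0.080, adjusted p = 1.48e-04).

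Both arms of miR-929 rose. This hairpin lies in an intron of cpx, which encodes the synaptic fusion regulator complexin (3R, 4295369 to 4295456, plus strand). The 5p arm stood at 427 ± 68.8 CPM in old and 336 ± 69.6 CPM in young heads, and the 3p arm at 122 ± 26.7 and 95.2 ± 17.7 CPM (SD, n = 18 each). The age ranges overlapped for both, while 17 of 18 old libraries lay above the young median for each. The differences were 0.35 for each arm (SE 0.094 and 0.095, adjusted p = 0.00184 and 0.00157), and neither was called when counts were summed over the time points of a replicate number, 3 sums against 3 (adjusted p = 0.119 and 0.0792). The smallest rise was that of the abundant miR-987-5p, at 7524 to 13586 CPM with a median of 10304 in old heads and 7673 to 10340.3 CPM with a median of 9255 in young heads. Old libraries spread to both sides, 9 above and 1 below all young ones, and the difference of 0.22 (SE 0.064, adjusted p = 0.00409) was not called in the summed counts either (adjusted p = 0.214). Its hairpin (2R, 9313023 to 9313116, minus strand) lies in introns of CG13739 and CG13954 and in an exon of lncRNA:CR45918.

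Falls were led by miR-955-5p, whose hairpin (3L, 3299055 to 3299151, plus strand) lies outside genes on its strand. It had 0 to 0.255 CPM with a median of 0.0948 in old heads, against 0.542 to 2.11 CPM with a median of 1.22 in young heads. Every old library lay below every young one, which was true of no other of the 31 arms and held in either direction for 9.64% of all features. In deposited counts, taken over the plain library totals without TMM factors, it had 37 in the 18 old libraries together, 0.0996 CPM (95% Poisson interval 0.0702 to 0.137, counting error only), against 543 in the 18 young libraries, 1.18 CPM (1.08 to 1.28). No old library had more than 6 counts and no young library fewer than 12. The fitted difference, -3.72 on the log2 scale (SE 0.264, adjusted p = 4.49e-14), was the lowest of all 363 features. This arm was kept by the filter only through the young libraries, 18 of which passed its cutoff against 0 of the old ones. The fold rests on few counts in old heads, and in limma on log2(RPM + 1), where a pseudocount of 1 exceeds its level, the difference was -0.98. Its partner arm miR-955-3p, not tested, had 2 counts in old and 37 in young heads in all.

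The most abundant of the arms fell as well. For miR-999-3p the old libraries ranged from 27298 to 44405 CPM with a median of 31558, and the young libraries from 33372 to 70862 CPM with a median of 46822. All 18 old libraries were below the young median and 11 below the lowest young library. The difference was -0.53 (SE 0.083, adjusted p = 1.22e-06). Its hairpin (3R, 21798227 to 21798331, minus strand) lies in an intron of CASK, a scaffold protein gene of synapses. Only 183 bases away lies miR-4969, whose 5p arm differed by -0.48 (SE 0.077, adjusted p = 2.09e-06).

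Tomosyn, an inhibitor of vesicle release at synapses, hosts miR-970 in an intron (X, 12636336 to 12636430, plus strand), and both of its arms fell. The 3p arm had 2923 to 5254 CPM with a median of 4198 in old heads and 4422 to 7842 CPM with a median of 6266 in young heads, and the 5p arm had 0.649 to 2.09 CPM, median 1.46, and 1.62 to 4.10 CPM, median 2.39. In each arm 13 of 18 old libraries were below all young ones. The differences were -0.58 (SE 0.069, adjusted p = 9.41e-09) and -0.83 (SE 0.122, adjusted p = 5.39e-07).

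The arms of miR-971, in an intron of the memory gene rsh (X, 13062072 to 13062167, plus strand), also fell together. Old and young heads held 24.1 ± 3.32 and 31.8 ± 5.36 CPM of the 3p arm and 8.43 ± 1.29 and 11.5 ± 1.81 CPM of the 5p arm. All 18 old libraries lay below the young median for both. The differences were -0.40 and -0.45, and the first was not called with library totals alone (-0.22, adjusted p = 0.0759) or in limma on log2(RPM + 1) (-0.19, adjusted p = 0.120). A further pair that fell was miR-954 (4, 626126 to 626212, plus strand, outside genes), at 0.953 ± 0.324 CPM in old and 1.75 ± 0.606 CPM in young heads for 5p and 0.691 ± 0.282 and 1.03 ± 0.183 CPM for 3p, with differences of -0.86 and -0.56 (adjusted p = 2.81e-06 and 0.00121).

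The other 4 falls belonged to the less abundant arm of a hairpin whose main arm did not fall. For miR-927-3p, from an intron of mmd (X, 15965947 to 15966038, minus strand), old libraries had 509 to 906 CPM, median 645, and young libraries 787 to 2028 CPM, median 1013. Of the old libraries 15 lay below every young one, a difference of -0.69 (SE 0.094, adjusted p = 1.39e-07). For miR-987-3p the levels were 3.47 ± 0.614 CPM in old and 5.33 ± 0.900 CPM in young heads (-0.61, adjusted p = 3.80e-07), and for miR-980-5p 14.9 ± 3.55 and 19.7 ± 3.58 CPM (-0.41, adjusted p = 2.47e-04). Last, miR-965-5p had 13.7 ± 1.78 CPM in old and 17.7 ± 2.52 CPM in young heads, with all old libraries below the young median (-0.37, adjusted p = 6.69e-06), which was not called with library totals alone (-0.18, adjusted p = 0.0668) and in limma on log2(RPM + 1) (-0.16, adjusted p = 0.0758).

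No call was made for the abundant miR-927-5p, at 3357 to 12368 CPM with a median of 4137 in old heads and 3471 to 9914 CPM with a median of 4277 in young heads (-0.02, SE 0.116, adjusted p = 0.890). Its highest library in each age was the miR-184-rich one. The same was true of miR-988-3p, with 17.9 ± 9.72 CPM in old and 21.9 ± 6.38 CPM in young heads (-0.34, adjusted p = 0.0544). This difference was called at -0.44 without old ZT0 replicate 3 (adjusted p = 0.00236), without any 1 of 7 other libraries, and at -0.36 with the replicate number as a block (adjusted p = 0.0323). Without the 5 libraries that stood apart it was called at -0.40 (adjusted p = 0.00475). The neighbour of the eye miRNA miR-210, miR-969 (X, 18124357 to 18124450, plus strand, outside genes), had 7.41 to 15.9 CPM of its 3p arm with a median of 12.8 in old heads and 6.97 to 16.5 CPM with a median of 14.5 in young heads (-0.15, adjusted p = 0.0562), a value called without any 1 of 6 libraries. The 3p arm of miR-969 was also called without the 5 libraries that stood apart (-0.13, adjusted p = 0.0433). At 3769 bases from miR-969, miR-210-3p differed by -0.33 and miR-210-5p by 0.59 (adjusted p = 4.67e-07 and 1.58e-04).

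Values of miR-966-5p, from an intron of the purine synthesis gene Pfas (2L, 6045627 to 6045713, minus strand), are uncertain, since its counts carried fractions in all 36 libraries and the sources used here do not say how such reads were split. It stood at 19.8 ± 3.97 CPM in old and 18.3 ± 4.20 CPM in young heads (0.11, adjusted p = 0.387). It was called at 0.33 with library totals alone (adjusted p = 0.00905) and at 0.31 in limma on log2(RPM + 1) (adjusted p = 0.0102). Other arms carried fractions in fewer libraries, among them miR-970-3p in 31, miR-987-5p in 27, miR-927-5p in 25, miR-1001-5p in 20, miR-999-3p in 17 and miR-986-5p in 10. Both arms of miR-929 carried none. The remaining 7 uncalled arms lay under 10 CPM. These were miR-967-5p and miR-967-3p, from an intron of the transcription factor gene bun (2L, 12460004 to 12460100, minus strand), miR-968-5p, miR-986-3p, miR-999-5p, miR-1001-3p and miR-1002-5p. Their differences ran from -0.51 (miR-967-3p, adjusted p = 0.105) to 0.04 (miR-1001-3p, adjusted p = 0.710). Without young ZT20 replicate 1, miR-967-3p was called lower (-0.59, adjusted p = 0.0463), and it had a median of 0.248 CPM in old and 0.310 CPM in young heads. This arm was kept by the filter through the young libraries, 6 of which passed the cutoff against 1 of the old ones. Its median count was 5 in old and 7.5 in young libraries.

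The ratio of the 5p to the 3p arm within a library does not depend on its scaling. Depth enters the fitted value through the count added to each arm, most where an arm has few counts. It differed between old and young heads in 7 of the 13 hairpins with both arms tested (limma on log2 ratios with 1 count added to each arm, adjusted over 97 hairpins of the whole table), against 52.6% of all 97 (57.7% at an unadjusted p under 0.05, at which the 13 hairpins also held 7). The 5p arm gained on the 3p arm in miR-988, miR-987, miR-927, miR-986 and miR-1001, and the 3p arm gained on the 5p arm in miR-980 and miR-965, against 30.9% and 21.6% of all hairpins. In each of these 7 hairpins the arm that gained in old heads was the more abundant one. Over all 97 hairpins the more abundant arm gained in 24 and lost in 27.

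The change was largest in miR-988, where the 5p arm made up 80.9% to 96.3% of the hairpin's counts with a median of 92.1% in old heads, and 70.4% to 91.8% with a median of 84.4% in young heads. Of 18 old libraries 16 lay above the young median. The log2 ratio differed by 1.09 (SE 0.195, adjusted p = 1.95e-05). For miR-980 the 5p share was 17.8% to 57.0% with a median of 23.2% in old and 26.4% to 71.2% with a median of 37.3% in young heads. The highest share in each age was again that of the miR-184-rich library, and 17 old libraries lay below the young median. The difference was -0.96 (SE 0.197, adjusted p = 1.33e-04), or -1.09 without the 5 libraries that stood apart.

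In miR-965 the 5p share had a median of 30.3% in old heads (23.9% to 40.2%) and 42.1% in young heads (27.7% to 50.7%), with all 18 old libraries below the young median. The log2 ratio differed by -0.74 (SE 0.115, adjusted p = 2.32e-06). In miR-927 the 5p share had a median of 87.6% in old heads (80.6% to 93.2%) and 80.6% in young heads (75.0% to 85.5%), and all 18 old libraries lay above the young median. This was a difference of 0.66 (SE 0.117, adjusted p = 1.95e-05). As scaled here the 3p arm fell and the 5p arm was not called. On the total behind the piRNA values both were lower, 3p by -1.29 and 5p by -0.64. The 5p arm of miR-987 made up 99.97% ± 0.00983 of its counts in old and 99.94% ± 0.0124 in young heads, a small change in share that corresponds to 0.82 on the log2 ratio scale (SE 0.122, adjusted p = 1.16e-06).

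Smaller differences of the ratio were found for miR-986 and miR-1001, both 0.44 (SE 0.143 and 0.127, adjusted p = 0.0109 and 0.00444). Neither was called with an estimated correlation among libraries of one age and replicate number (adjusted p = 0.0899 and 0.0570) or with counts summed over time points (adjusted p = 0.0921 for both). No call was made for miR-929 (0.01), miR-971 (-0.05), miR-970 (-0.24), miR-954 (-0.25), miR-967 (0.29) and miR-999 (0.30). The ratio of miR-999 rested on miR-999-5p, which made up 0.00184% ± 5.65e-04 of the hairpin's counts in old and 0.00160% ± 6.65e-04 in young heads. Those of miR-954 and miR-970 were called, at -0.44 and -0.31, without the 5 libraries that stood apart (adjusted p = 0.0300 and 0.0379), and that of miR-999 was called at 0.35 with 5 counts added to each arm in place of 1 (adjusted p = 0.0487).

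**Figure D3:**
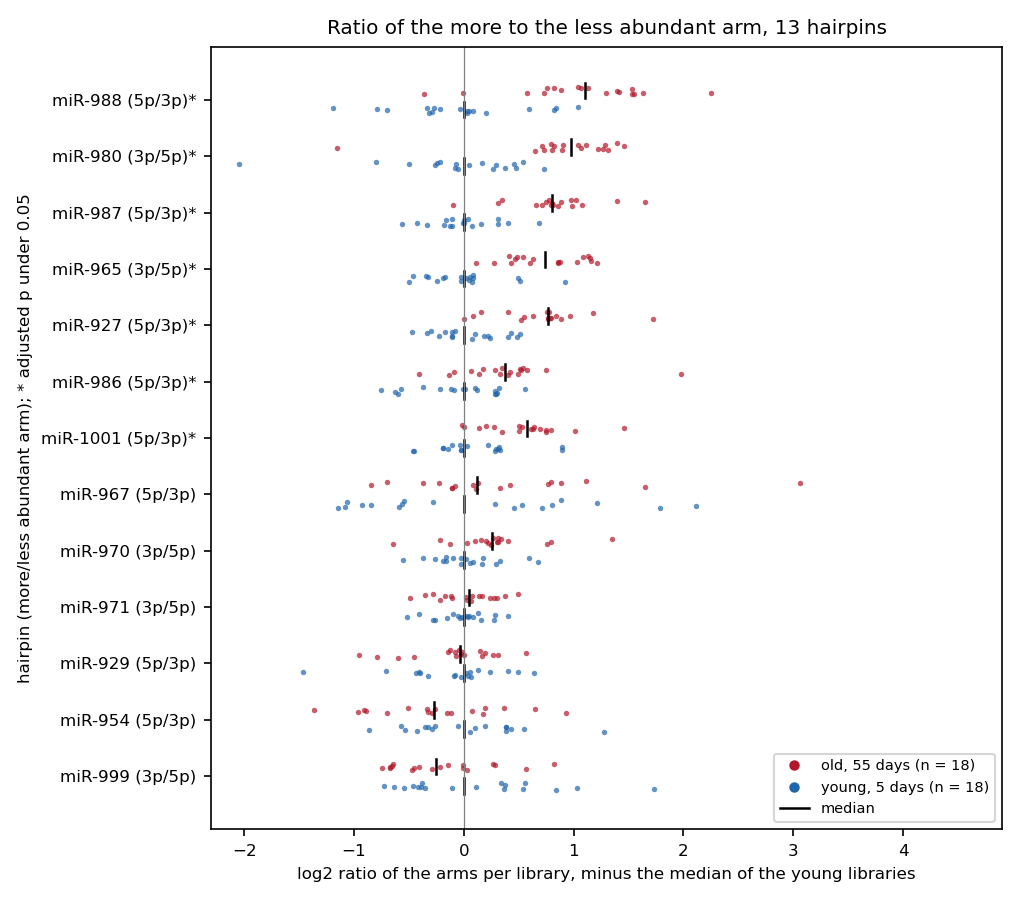
Log2 ratio of the more to the less abundant arm per library, less the median of the young libraries, for 13 hairpins, with 18 old libraries (red, upper lane) and 18 young libraries (blue, lower lane); the black bar is the median and an asterisk marks an adjusted p under 0.05. In the 7 marked hairpins the old median lies to the right of the young one, and 1 old library of miR-980 far to the left is ZT0 replicate 3.

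Seen by arm, 7 of the 8 rises were those of the more abundant arm of a hairpin, and the eighth was miR-929-3p. Among the 13 hairpins the more abundant arm rose in 7 and fell in 4, and the less abundant arm rose in 1 and fell in 7. Over all 97 hairpins these shares were 26.8% and 37.1% for the more abundant arm and 24.7% and 30.9% for the less abundant one. This grouping was chosen after the values were seen and is a description only. As scaled here, both arms were called in opposite directions in 3 hairpins (miR-965, miR-980 and miR-987). In 4 (miR-929, miR-954, miR-970 and miR-971) both were called in the same direction, against 10.3% and 30.9% of all 97 hairpins. On the total behind the piRNA values both arms of those 3 hairpins had negative differences.

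No arm passed the test for a 24 h rhythm. In young heads 0 of the 31 arms were called, against 4.68% of all 363 features, with 3 of the arms and 9.92% of all features at an unadjusted p under 0.05, 1 of the arms called by DESeq2 and 0 by limma. In old heads 0 of the arms and 0% of all features were called by edgeR, with 3 of the arms and 11.6% of all features at an unadjusted p under 0.05, and DESeq2 and limma called 0 of the arms. Shares over all features are those of edgeR and are not given for DESeq2 and limma in either age.

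The arm with the smallest p in young heads was miR-986-5p. Its mean was 1384 ± 197 CPM at ZT0, 1191 ± 273 at ZT4, 1153 ± 218 at ZT8, 1022 ± 33.6 at ZT12, 1106 ± 94.6 at ZT16 and 1169 ± 126 at ZT20 (SD, n = 3 each). Values were highest at ZT0, where the library rich in miR-184-3p had 1608 CPM and its mates 1305 and 1238 CPM, and lowest at ZT12, with a fitted peak at ZT0.573 and a log2 difference of 0.34 between peak and trough (edgeR adjusted p = 0.199). It was called by DESeq2 (0.42, adjusted p = 0.0411) and without young ZT4 replicate 3 (0.42, adjusted p = 0.0414). In old heads its mean lay between 1542 ± 102 CPM at ZT0 and 1738 ± 104 CPM at ZT4.

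For miR-969-3p the means in old heads were 9.13 ± 1.74 CPM at ZT0, 12.5 ± 0.316 at ZT4, 13.9 ± 1.78 at ZT8, 13.7 ± 0.832 at ZT12, 13.6 ± 1.48 at ZT16 and 13.2 ± 2.09 at ZT20, and in young heads they ran from 11.6 ± 4.07 CPM at ZT0 to 15.9 ± 0.773 at ZT12. Both ages had the lowest mean at ZT0, where each has 1 library rich in miR-184-3p with the lowest miR-969-3p level of its age, 7.41 CPM in old and 6.97 CPM in young heads. The fitted sizes were 0.44 in old and 0.38 in young heads (edgeR adjusted p = 0.350 and 0.469). The ZT0 group held such a library also for the other arms with an unadjusted p under 0.05 in old heads, miR-988-3p and miR-927-5p (adjusted p = 0.350 and 0.396), and these had 54.4 and 12368 CPM in it. The part of these libraries in the rhythm values was not tested.

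No interaction of age with the hour passed a test. The rhythm differed between old and young heads for 0 of the 31 arms and 0% of all features by edgeR, with 1 of the arms and 9.37% of all features at an unadjusted p under 0.05. A dependence of the age difference on the hour was called for 0 of the arms and 0% of all features, with 0 of the arms and 6.61% of all features at an unadjusted p under 0.05. DESeq2 and limma called 0 of the arms in both tests, and their shares over all features are not given. The arm with the smallest p in both was miR-954-5p. At ZT16 its old libraries held 0.682, 0.856 and 1.35 CPM and its young libraries 1.84, 2.39 and 3.73 CPM. Its means were 0.872 ± 0.0954 CPM in old and 1.60 ± 0.300 CPM in young heads at ZT8, and 1.15 ± 0.202 CPM in old and 1.39 ± 0.180 CPM in young heads at ZT4 (adjusted p = 0.203 for the rhythm and 0.807 for the time points).

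**Figure D4:**
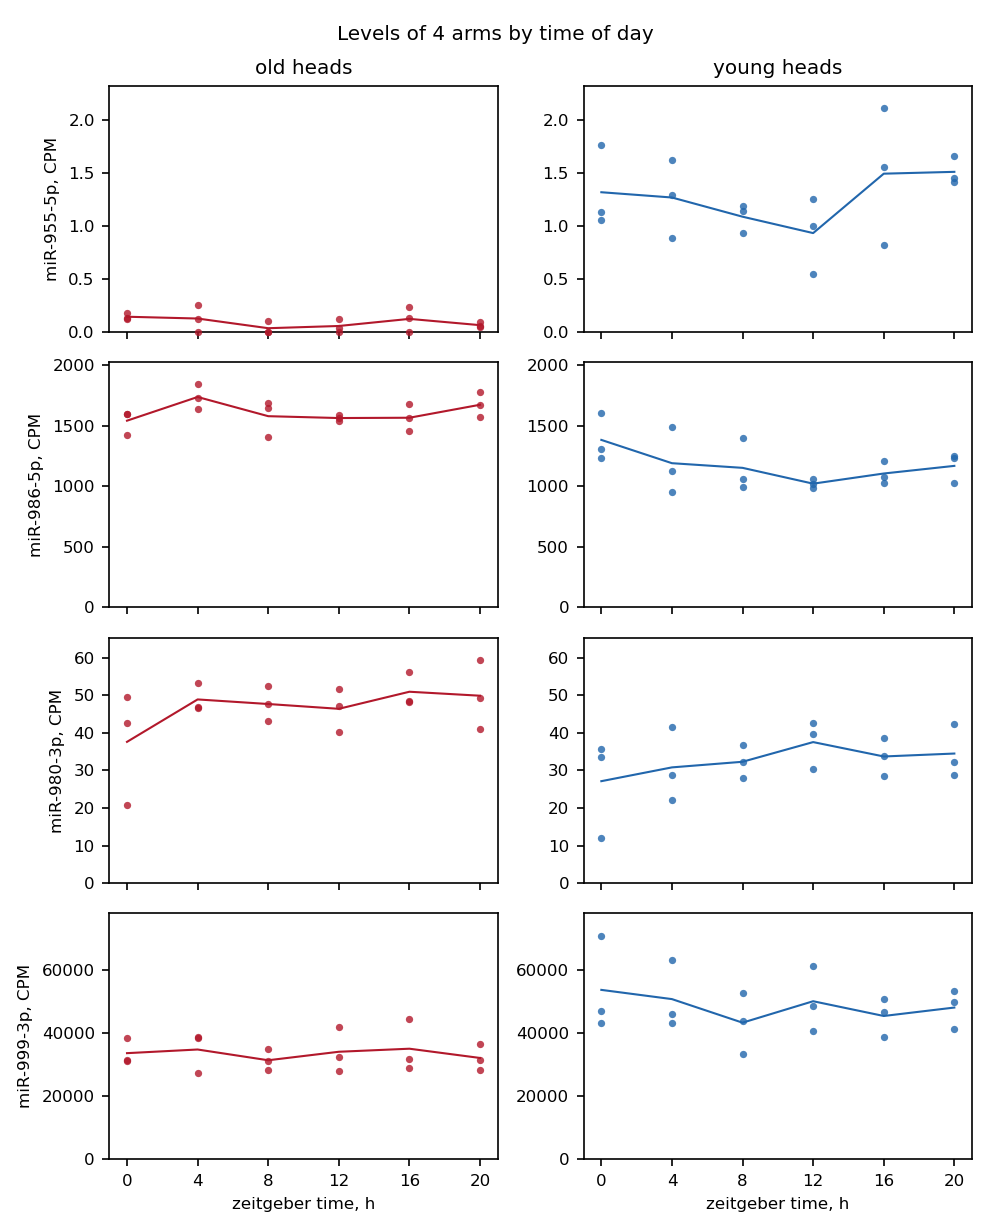
Level in CPM against zeitgeber time for miR-955-5p, miR-986-5p, miR-980-3p and miR-999-3p, with old heads on the left and young heads on the right; points are the 3 libraries of each time point, lines join their means, and each row has 1 axis that starts at 0. For miR-955-5p all old points lie under 0.3 CPM at every hour, and the low ZT0 points of miR-980-3p, 20.8 CPM in old and 12.0 CPM in young heads, are the libraries rich in miR-184-3p.

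The 2 libraries rich in miR-184-3p, old ZT0 replicate 3 and young ZT0 replicate 1, stood apart in the same direction in part of these arms. Of the 31 arms, 5 lay above and 7 below every other library of their age in both, against 13.2% and 14.3% of all 363 features, or 16.1% and 22.6% of the arms (the other libraries being 16 old and 15 young ones, the ovary-rich ones left aside). Singly the old library had 7 arms above and 8 below the others, and the young library 9 above and 9 below. The ovary-rich libraries had at most 1 arm above and 4 below. No share over all features is given for these counts of single libraries, so they do not show a trait of these arms.

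In the old library miR-927-5p stood at 12368 CPM, against 3357 to 5177 CPM in the other old libraries, and in the young library at 9914 CPM, against 3471 to 5863 CPM in the other young libraries. The less abundant arm miR-988-3p was at 54.4 CPM against 10.5 to 25.4 CPM in old heads, and at 37.3 CPM against 12.3 to 30.9 CPM in young heads. The arms of miR-980 parted, with the 3p arm low (20.8 CPM against 40.2 to 59.4 CPM in old, 12.0 against 22.1 to 42.5 CPM in young heads) and the 5p arm high (27.6 CPM against 12.1 to 16.8 CPM in old, 29.7 against 14.4 to 24.0 CPM in young heads). Also high in both were miR-927-3p and miR-986-3p, and low in both were miR-929-5p, miR-967-3p, miR-968-5p, miR-969-3p, miR-970-3p and miR-971-5p. The lowest of these was miR-967-3p, at 0 CPM in both.

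**Figure D5:**
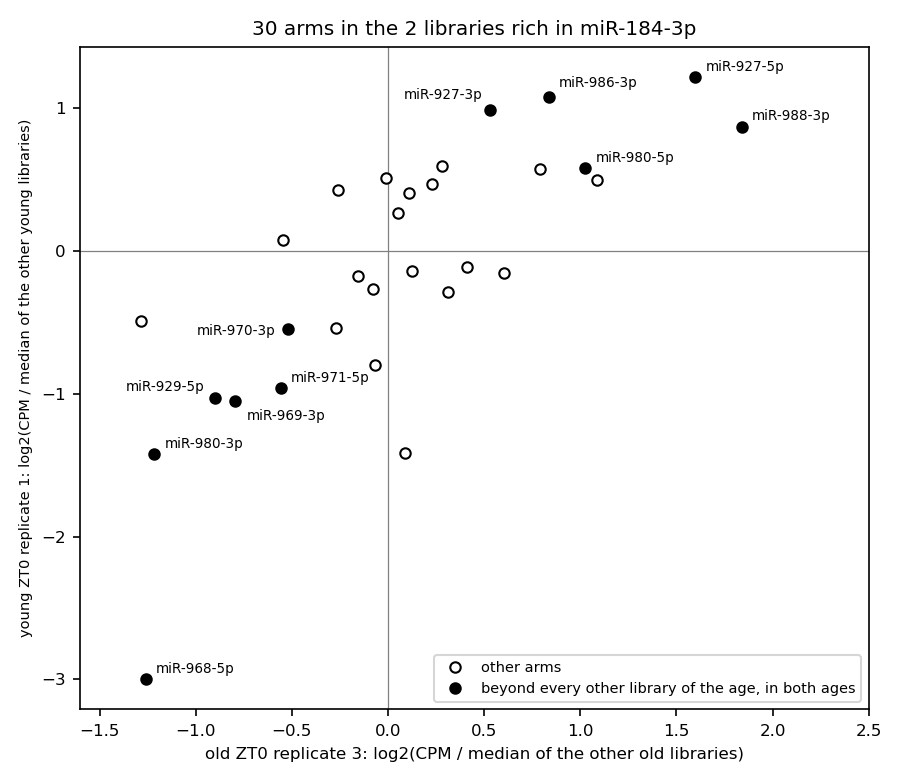
Level of 30 arms in old ZT0 replicate 3 (horizontal axis) and in young ZT0 replicate 1 (vertical axis), each as the log2 ratio to the median of the other libraries of its age without the ovary-rich ones; miR-967-3p, at 0 in both, is not drawn. Filled points lie beyond every such library in both ages, with 5 at the upper right and 6 at the lower left.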

How the data were processed

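The authors deposited expected counts per mature miRNA arm, which carry fractions, and the same values as RPM, which equal each count over the summed miRNA counts (per the file headers and the values themselves). The submitters' processing notes name Bowtie, BDGP6 and dm6 and give no versions. How reads were trimmed, filtered and assigned is not given in the sources used here. The deposited piRNA tables served only to recover the larger library total behind their RPM. No column of values belonged to an unlisted sample.

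Counts were rounded, filtered with edgeR's filterByExpr over 12 groups, scaled with TMM and fitted with edgeR 4.0.16 in R 4.3.3 over all 363 features kept. The age test has time point as a factor. Rhythm tests use a cosine and a sine of 24 h period per age. Arm ratios were fitted with limma 3.58.1. Alternatives included DESeq2 1.42.0, limma on log2(RPM + 1), other scalings, filters and pseudocounts, a replicate block, and leaving out each library.

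The rule named every arm of at least 10 CPM or past a threshold, and miRNAs within 10 kb on the same strand. Its clause on shared seeds could not be applied, since mature sequences were not used here. The members are found by name alone, but the list of names, the marker lists and the tests were drawn up with earlier results of these data known. Hairpin positions come from the Ensembl gene annotation on BDGP6, matched by name. Depth, 16.2 to 30.4 M counts per library, sets the counting error, and intervals and limits cover that error only.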

Additional observations from a re-analysis of the deposited data

How the results depend on the processing

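Against 20 called arms (8 higher and 12 lower in old heads), leaving out each library in turn gave 20 to 23 calls, with 8 higher and 12 to 15 lower. Over all features these fits gave 216 to 230 calls, against 223 in the main fit. With the total of the piRNA tables as the scale there were 0 higher and 28 lower, a filter at 10 CPM 6 lower with fewer arms tested, and counts summed over the time points of a replicate number 5 higher. Over all features the piRNA scale gave 28 higher and 251 lower of 363. The 10 CPM filter gave 61 higher and 56 lower of 167, and summed counts gave 72 higher and 96 lower of 363. On the piRNA scale the signs turned for miR-1001-5p (-0.13), miR-929-3p (-0.25), miR-929-5p (-0.28), miR-965-3p (-0.25), miR-980-3p (-0.11), miR-986-5p (-0.15) and miR-987-5p (-0.41), and for the uncalled miR-1001-3p (-0.59), miR-966-5p (-0.49) and miR-986-3p (-0.59). That scale shifts all features alike (median -0.62). Rhythm calls in young heads numbered 1 with DESeq2 and 0 to 1 over the fits that left out a library, with no share over all features given. Against 7 called arm ratios (5 higher and 2 lower), the 10 CPM filter gave 4 (2 higher) with fewer hairpins tested. A correlation within age and replicate number, and summed counts, gave 3 higher each, while 4 were lower without a filter and 4 without the 5 libraries that stood apart. The cause was not tested, and no share over all hairpins is given for these alternative ratio counts. Same-numbered old and young libraries deviated together, with a correlation over 0.1, in 9 of 18 pairs (median 0.0914), and an old library matched its own number best in 8 of 18, so the numbers were not taken as pairs. With the replicate block the counts were 21 arms (8 higher and 13 lower), 0 in each rhythm test and 7 arm ratios (5 higher and 2 lower), and 0 rhythms with age and replicate number together as the block. The age test with the replicate block called 109 higher and 122 lower over all features.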

Other observations

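Marker miRNAs of other tissues were listed by name. Of the 4 testis miRNAs, 3 rose in old heads, miR-984-3p by 1.82, miR-303-3p by 1.39 and miR-982-5p by 0.27 on the log2 scale (edgeR adjusted p = 1.05e-08, 1.42e-05 and 9.72e-04), and miR-983-5p (0.14) was not called. Levels of miR-984-3p and miR-303-3p were low, with medians of 0.493 and 0.383 CPM in old and 0.153 and 0.148 CPM in young heads. Their highest young libraries held 0.287 and 0.275 CPM, under the filter's cutoff of 0.443 CPM, so only old libraries kept them. The 4 testis miRNAs summed to 9.34 to 17.2 CPM in old and 7.10 to 11.8 CPM in young heads. Most of this was miR-982-5p, with medians of 9.91 and 8.34 CPM. The early embryo list summed to a median of 20.7 CPM in old and 12.0 CPM in young heads. Muscle miR-1-3p had a median of 557 CPM in old and 426 CPM in young heads. It was not called (0.09, edgeR adjusted p = 0.707). In the sense organ list miR-263a-5p and miR-263b-5p had medians of 33825 and 78.2 CPM in old and 24399 and 109 CPM in young heads. Neither was called (0.39 and -0.35, edgeR adjusted p = 0.0679 and 0.114). The part of these tissues in the results above was not tested. Of the 38 arms 7 had too few counts for a test, and no target or messenger RNA was measured.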
